A study of Mus musculus with 2 samples.

Results

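The 44 cell cycle genes described here were taken from the gene symbols of both libraries, in which all 44 were found among 31017 symbols. They were read as 16 S-phase genes (Mcm2 to Mcm7, Pcna, Tk1, Tyms, Rrm1, Rrm2, Dut, Pclaf, Gmnn, Cdc6 and Cdt1), 23 mitotic genes (Mki67, Top2a, Birc5, Cdk1, Ccnb1, Ccnb2, Ccna2, Cenpf, Cenpe, Cenpa, Ube2c, Aurka, Aurkb, Bub1, Bub1b, Plk1, Tpx2, Kif11, Nusap1, Cdc20, Cdca8, Hmmr and Tacc3) and 5 genes with broad transcription (Stmn1, Tubb5, Tuba1b, H2afz and Hmgb2). The study moved all CD8 T cells of 3 months old CD45.1 C57BL/6J wild-type donor mice into CD45.2 C57BL/6J wild-type recipients that were 24 months old at transfer. The spleen was taken 1 month later, when the host was 25 months old, and host and transferred cells were sorted apart on CD45.2 or CD45.1 together with CD3e and CD8a. Each sorted population gave 1 droplet library of 5′ transcript ends, called here the recipient library (old cells in their own old spleen) and the donor library (young cells that had spent 1 month in an old spleen). Nothing in the labels tells if 1 mouse, several or a pool gave the cells of the libraries. The donor cells were transferred and carry CD45.1, and the recipient cells were not transferred and carry CD45.2. Age, transfer and the CD45 strain therefore cannot be told apart, for any gene.

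S-phase genes encode the machinery that opens and copies chromosomes: the Mcm2 to Mcm7 helicase, its loaders Cdc6 and Cdt1, the sliding clamp Pcna with its partner Pclaf, and enzymes of nucleotide supply such as Rrm1, Rrm2, Tyms, Tk1 and Dut. Mitotic genes encode the kinases, cyclins, kinetochore and spindle proteins that act from G2 to cell division, and many of them are silenced in resting cells. A CD8 T cell in the spleen is usually resting, and a small number of memory and effector cells divide at any time.

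The deposited files held 6174 barcodes and 41504941 UMIs (unique molecular identifiers, counted transcripts) in the recipient library, and 8588 barcodes and 65006187 UMIs in the donor library. After filters on genes, mitochondrial UMIs and doublets, 5341 and 7451 cells were kept, with a median of 6996 and 7855 UMIs. The libraries shared 105 barcode sequences, 60 of them kept in both, and results that changed without them are given beside the values they touch. Of the genes of the sorted proteins, Cd3e was found in 100% and 99.1% and Cd8a in 91.5% and 95.7% of the cells that carried several mitotic genes. The 5 NK cell markers summed to 102 CPM (counts per 1000000 UMIs) in the recipient library and 91.2 CPM in the donor library. Most of this was Eomes, which memory CD8 T cells also express, at 75.8 and 85.8 CPM. Fcer1g had 14.3 and 1.57 CPM, Klrb1c 7.96 and 0.958 CPM, Tyrobp 4.03 and 2.82 CPM and the NK receptor gene Ncr1 0.052 CPM and 0. In cells with several mitotic genes Klrb1c had 1 UMI in each library, Tyrobp 0 and 1, and Ncr1 none in either, while Fcer1g had 20 UMIs in the recipient library. The part of these markers in the results was not tested. With 1 library per group there is no test between groups, and every interval given here is an exact 95% interval that covers counting error only.

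Over all kept cells the mitotic genes stood at the same summed level in both libraries. They summed to 132 CPM in the recipient library and 133 in the donor library, a log2 ratio of recipient over donor of -0.01 [-0.06, 0.04]. The 16 S-phase genes summed to 428 and 393 CPM, a log2 ratio of 0.12 [0.09, 0.15], and the 5 broad genes to 1621 and 1591 CPM, a log2 ratio of 0.03 [0.01, 0.04]. No member differed by 1.5-fold or more in either direction, where 4.22% of the 11140 genes with at least 50 UMIs were that much higher in the recipient library and 2.70% that much lower. The counting interval lay above 0 for 13 members and below 0 for 4, against 23.1% and 12.7% of all genes. Of the 13, 8 were S-phase genes, 2 were mitotic and 3 were broad. Without the barcodes found in both libraries the mitotic ratio was -0.08 [-0.13, -0.03] and 1 member was at least 1.5-fold lower, Cenpf at -0.76 [-1.11, -0.42]. In cells with fewer than 3 mitotic genes the mitotic ratio was 0.25 [0.15, 0.35], at 38.6 and 32.5 CPM, and of 28 members with at least 50 UMIs there 1 (Mki67) was at least 1.5-fold higher and none lower, against 3.91% and 2.68% of all genes. In Gzmk, Ly6c2 and naive-type cells, defined below, the intervals of this mitotic ratio held 0. The libraries hold these cells in different proportions, and the part of this in the pooled ratio was not tested.

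Among the S-phase genes, the most abundant were Mcm6, Dut and Pcna. Mcm6, a subunit of the replicative helicase, had 58.4 CPM in the recipient and 50.1 CPM in the donor library, a log2 ratio of 0.22 [0.14, 0.30]. Dut, which removes dUTP from the nucleotide pool, had 56.2 and 52.2 CPM (0.11 [0.02, 0.19]). Pcna had 52.7 and 53.2 CPM (-0.01 [-0.09, 0.07]), so the sliding clamp was level while the helicase gene was slightly higher in the recipient library. The largest ratios of this list belonged to Rrm2, the regulated subunit of ribonucleotide reductase, with 11.8 and 8.50 CPM (0.47 [0.29, 0.66]), to Pclaf with 15.9 and 12.4 CPM (0.36 [0.21, 0.52]) and to Mcm5 with 18.5 and 15.8 CPM (0.23 [0.08, 0.37]). The smallest were Cdt1, the licensing factor, with 34.2 and 35.3 CPM (-0.04 [-0.15, 0.06]), Pcna, and Tyms, thymidylate synthase, with 12.6 and 12.4 CPM (0.03 [-0.14, 0.20]). All 5 Mcm genes from Mcm3 to Mcm7 had intervals above 0, with log2 ratios from 0.15 to 0.23, and Mcm2 stood at 0.03 [-0.09, 0.16].

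The mitotic genes split around 0. Cenpa, the histone variant of centromeres, was the most abundant with 25.0 and 21.7 CPM (0.20 [0.08, 0.32]). Top2a, the topoisomerase that untangles sister chromosomes, had 14.9 and 14.7 CPM (0.01 [-0.14, 0.17]) and Birc5, which encodes survivin, 11.8 and 12.4 CPM (-0.07 [-0.24, 0.10]). Mki67, whose protein coats mitotic chromosomes, had 7.62 and 7.13 CPM (0.09 [-0.13, 0.31]). The highest ratios were those of Aurkb, the kinase of the chromosomal passenger complex, with 3.56 and 2.58 CPM (0.46 [0.12, 0.81]), of the checkpoint kinase Bub1 with 0.890 and 0.667 CPM (0.42 [-0.29, 1.12]) and of the spindle motor Kif11 with 3.27 and 2.65 CPM (0.30 [-0.05, 0.65]). The lowest were Cenpf, a kinetochore protein of late G2, with 3.01 and 4.40 CPM (-0.55 [-0.88, -0.22]), the B-type cyclin Ccnb1 with 2.33 and 2.98 CPM (-0.35 [-0.74, 0.02]) and its relative Ccnb2 with 6.02 and 7.68 CPM (-0.35 [-0.59, -0.12]). Ube2c, the ubiquitin-conjugating enzyme of the anaphase-promoting complex, was the third mitotic gene with an interval below 0, at 9.37 and 11.3 CPM (-0.28 [-0.47, -0.09]).

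**Figure D1:**
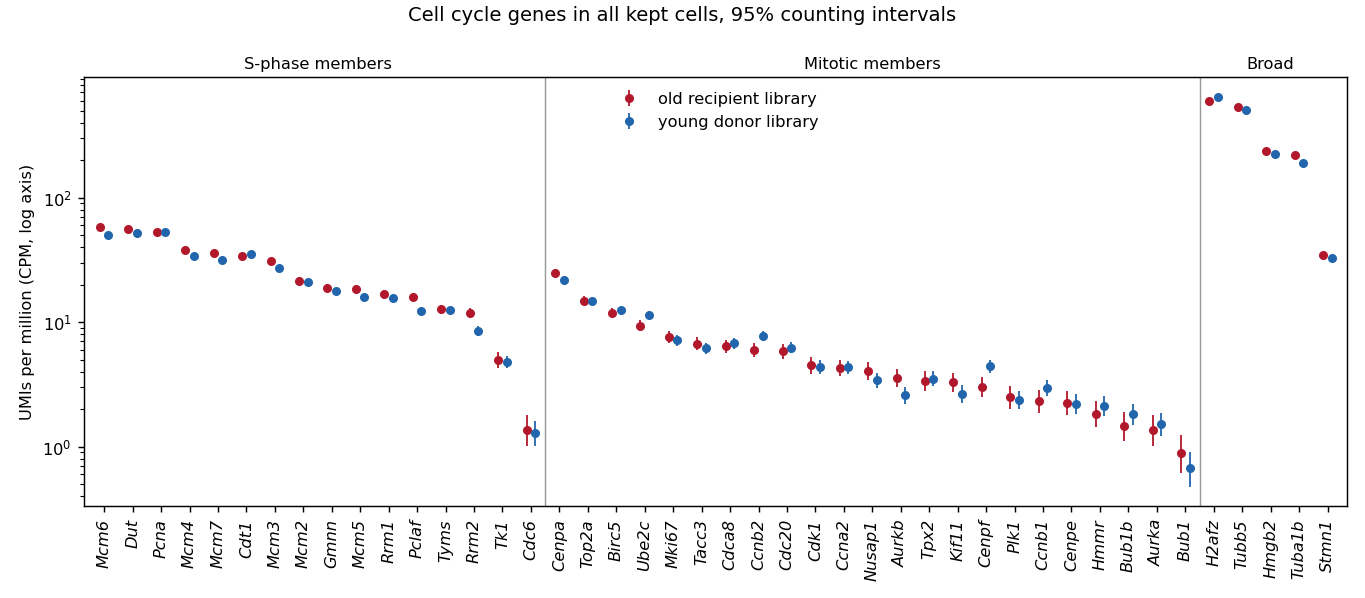
CPM (log axis) of the 44 genes in the recipient and donor libraries, all kept cells, with 95% counting intervals and genes ordered by recipient level within each list. The pairs lie close together, and the median mitotic gene lies at 4.06 and 4.33 CPM, the median S-phase gene at 20.1 and 19.3 CPM and the median broad gene at 235 and 226 CPM.

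The broad genes are transcribed in resting cells as well. Tubb5 and Tuba1b encode tubulins, H2afz and Hmgb2 chromatin proteins, and Stmn1 the tubulin-binding protein stathmin. Tubb5 had 536 and 505 CPM (0.08 [0.06, 0.11]), Tuba1b 219 and 188 CPM (0.22 [0.18, 0.26]), and Hmgb2 235 and 226 CPM (0.06 [0.02, 0.10]). H2afz went the other way with 597 and 639 CPM (-0.10 [-0.12, -0.07]), and Stmn1 had 34.3 and 32.6 CPM (0.07 [-0.03, 0.17]). These differences are small, and the sum over the list changed sign under another scaling, to -0.02 with TMM factors. Tubb5 and Tuba1b belong to families of near-identical tubulin genes. Their counts depend on how the authors' counting treated reads that match several genes, which was not tested.

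The UMIs of most mitotic genes lay in very few cells. Cells with UMIs of at least 3 of the 23 mitotic genes, called mitotic-positive here, numbered 71 of 5341 (1.33%) in the recipient library and 115 of 7451 (1.54%) in the donor library, and held 2.53% and 2.62% of all UMIs. Their median depth was 11872 and 12358 UMIs, against 6959.5 and 7830 in the remaining cells. The cut is not a clear valley on its lower side: 148 and 169 cells had exactly 2 mitotic genes, and 20 and 26 had exactly 3. At the upper end, 12 or more genes were found in 38 and 52 cells and all 23 genes in 3 and 4 cells. Between 6 and 11 genes there were 5 recipient and 22 donor cells.

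To compare shares at equal depth, each cell was thinned to 3500 UMIs, which left out 488 recipient cells (9.14%) and 454 donor cells (6.09%). The mitotic-positive share was then 47 of 4853 cells in the recipient library, 0.968% [0.712, 1.29], and 81 of 6997 cells in the donor library, 1.16% [0.920, 1.44]. These counting intervals overlap, and with 1 library per group a difference between the groups could not be tested. Cells with at least 5 of the 16 S-phase genes made up 1.57% [1.24, 1.96] (76 cells) and 1.43% [1.16, 1.74] (100 cells), which also overlap. Without thinning the S-phase share was 6.91% and 7.34%, since resting cells transcribe several of these genes and deeper cells show more of them. Both criteria held in 31 recipient and 42 donor cells, the mitotic criterion alone in 16 and 39, and the S-phase criterion alone in 45 and 58. Of the mitotic-positive cells, 66.0% [50.7, 79.1] in the recipient library and 51.9% [40.5, 63.1] in the donor library thus also passed the S-phase criterion.

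The share of a gene's UMIs that lay in mitotic-positive cells separated the lists. To keep a gene from choosing its own cells, each mitotic gene was read in cells with at least 3 other mitotic genes. The median over the mitotic list was 83.8% in the recipient and 85.4% in the donor library, with Birc5 at 97.6% and 97.7%, Ccnb2 at 97.0% and 97.1%, Mki67 at 74.9% and 83.7% and Top2a at 63.7% and 68.4%. Cenpa at 32.6% and 44%, Tacc3, a spindle protein, at 49.4% and 40.7%, and Cdc20, the activator of the anaphase-promoting complex, at 51.4% and 51.2% were found widely outside these cells. The median over the S-phase list was only 19.5% and 16.4%, from 6.89% and 5.73% for Cdt1 upwards, with Mcm6 at 10.9% and 10.9%. Within that list 4 genes lay with the mitotic ones: Pclaf had 96.5% and 97.2% of its UMIs in mitotic-positive cells, Rrm2 86.9% and 81.1%, Cdc6 86.5% and 88%, and Tk1, thymidine kinase, 82.0% and 76.1%. The next gene in order was Tyms, at a much lower 35.8% and 30.4%. Of the broad genes Stmn1 stood out with 62.0% and 58.8%, while Tubb5 had 7.48% and 8.31% and H2afz 10.8% and 9.57%. The order of the genes was much the same in both libraries, and no test was made of the difference.

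**Figure D2:**
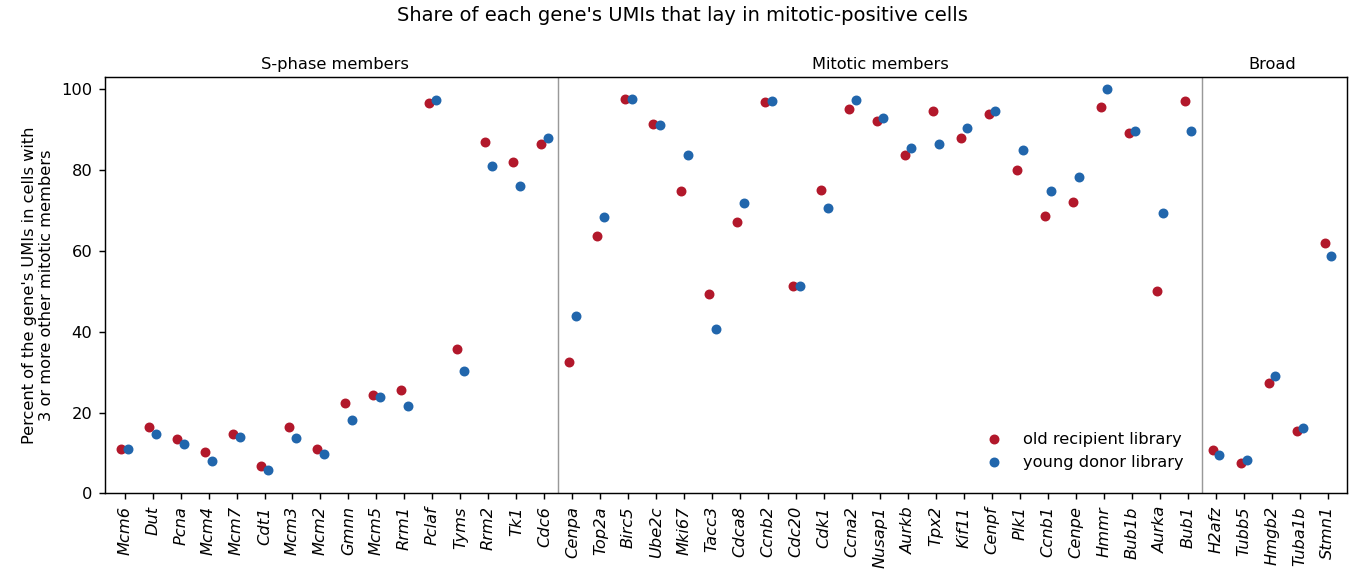
Percent of each gene's UMIs that lay in cells with at least 3 other mitotic genes, for the recipient and donor libraries, in the gene order of the level plot. The mitotic genes lie high (median 83.8% and 85.4%) and the S-phase genes low (19.5% and 16.4%), except Pclaf, Rrm2, Tk1 and Cdc6, which lie with the mitotic genes.

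Genes outside the 44 were higher with the number of mitotic genes in a cell, which checks the criterion on genes it did not use. The 52 other mitotic genes summed to 504 CPM in recipient cells and 494 CPM in donor cells without a mitotic member, to 901 and 1002 CPM in cells with 3 to 5 members, to 2416 and 2542 CPM with 6 to 11, and to 6399 and 6521 CPM with 12 or more. The 37 other replication genes went from 541 and 520 CPM to 4116 and 3260 CPM over the same range. The 14 other G1 cyclin and E2F genes went from 739 and 793 CPM to only 1115 and 1037 CPM. Cells at the lower edge of the criterion thus carried far less of these transcripts than the fullest cells.

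**Figure D3:**
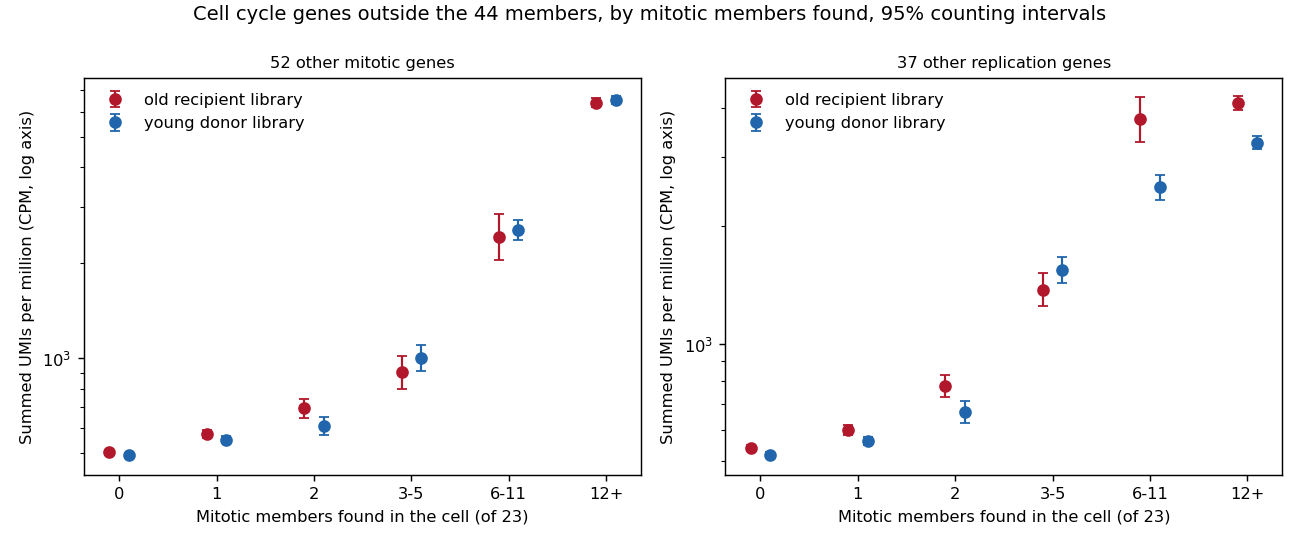
Summed CPM (log axis) of 52 other mitotic genes and 37 other replication genes in cells grouped by how many of the 23 mitotic members they held, with 95% counting intervals. Both lists are higher with more mitotic members, and in cells with 12 or more the replication genes lie at 4116 CPM in the recipient and 3260 CPM in the donor library.

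Since the mitotic genes are found together in the same cells, the promoters of the members are shown. Sequences came from RefSeq (GRCm38.p6), which matched 37 of the 44 members. Mcm4, Gmnn, Ccna2, Aurkb, Tpx2, Stmn1 and H2afz were not matched. Windows of 300 bases around each gene start were searched on both strands for the CHR element TTTGAA, the CCAAT box CCAAT, and 4 forms of the E2F motif, TTTCCCGC, TTTGGCGC, TTTCGCGC and TTTGCCGC, which may overlap each other on opposite strands. The CHR element was found in 14 of 20 mitotic promoters (70.0%), in 1 of 14 S-phase promoters (7.14%) and in 20.2% of 27025 genes. An E2F form was found in 7 of 14 S-phase promoters (50.0%), in 1 of 20 mitotic promoters (5%) and in 2.60% of all genes. CCAAT was found in 17 mitotic promoters (85.0%), 9 S-phase promoters (64.3%) and 41.1% of all genes. A match is a string of letters in a window and no evidence of a bound factor.

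Of the mitotic promoters, the 170 bases before the gene start are given 5′ to 3′ along the gene for 5 genes that hold the CHR element, with every motif match in capitals (ATTGG and TTCAAA are CCAAT and TTTGAA read on the other strand).
Top2a, chr11:99024190-99024359, minus strand: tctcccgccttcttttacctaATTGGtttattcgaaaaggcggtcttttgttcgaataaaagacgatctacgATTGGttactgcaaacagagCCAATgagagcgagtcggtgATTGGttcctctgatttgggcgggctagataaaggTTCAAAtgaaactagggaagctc
Cdk1, chr10:69352913-69353082, minus strand: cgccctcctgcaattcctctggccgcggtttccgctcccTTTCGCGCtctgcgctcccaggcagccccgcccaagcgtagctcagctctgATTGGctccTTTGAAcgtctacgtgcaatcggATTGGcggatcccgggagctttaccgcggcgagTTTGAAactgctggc
Ube2c, chr2:164769759-164769928, plus strand: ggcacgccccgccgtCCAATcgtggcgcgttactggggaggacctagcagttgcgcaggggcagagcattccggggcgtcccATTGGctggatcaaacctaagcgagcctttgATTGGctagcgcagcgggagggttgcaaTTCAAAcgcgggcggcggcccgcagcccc
Cdc20, chr4:118437344-118437513, minus strand: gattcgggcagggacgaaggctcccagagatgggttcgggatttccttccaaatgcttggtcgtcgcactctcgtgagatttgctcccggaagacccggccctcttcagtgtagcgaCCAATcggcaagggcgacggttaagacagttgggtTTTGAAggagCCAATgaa
Kif11, chr19:37376212-37376381, plus strand: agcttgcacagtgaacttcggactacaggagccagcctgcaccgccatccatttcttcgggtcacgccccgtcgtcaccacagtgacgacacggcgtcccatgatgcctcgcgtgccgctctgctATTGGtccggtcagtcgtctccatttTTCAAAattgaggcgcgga
Cdk1, the kinase that drives entry into mitosis, holds 2 CHR elements and is the mitotic member that also holds an E2F form.

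For the S-phase genes the same stretch is given for Mcm5 and Mcm6, whose UMIs lay mostly outside mitotic-positive cells, and for Cdc6, whose UMIs lay mostly inside them.
Mcm5, chr8:75109339-75109508, plus strand: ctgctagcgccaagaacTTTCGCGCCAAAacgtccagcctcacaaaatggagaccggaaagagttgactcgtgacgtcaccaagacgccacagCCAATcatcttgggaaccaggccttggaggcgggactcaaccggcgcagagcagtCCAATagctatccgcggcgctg
Mcm6, chr1:128359706-128359875, minus strand: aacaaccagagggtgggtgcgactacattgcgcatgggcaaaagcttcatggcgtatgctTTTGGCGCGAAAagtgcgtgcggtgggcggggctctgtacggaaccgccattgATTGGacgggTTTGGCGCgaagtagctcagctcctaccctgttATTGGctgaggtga
Cdc6, chr11:98907981-98908150, plus strand: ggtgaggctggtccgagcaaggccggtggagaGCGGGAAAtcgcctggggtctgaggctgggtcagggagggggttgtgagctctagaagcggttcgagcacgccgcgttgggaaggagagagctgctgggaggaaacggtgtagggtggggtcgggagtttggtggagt
All 3 hold an E2F form and none holds the CHR element in the window searched. They come from the 7 of 14 S-phase promoters with an E2F form and do not stand for the list. Of the other genes whose UMIs lay mostly inside mitotic-positive cells, Pclaf holds an E2F form and Rrm2 and Tk1 hold none. Mcm2, whose UMIs lay mostly outside them, holds a CHR element and no E2F form.

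Cells were then gated on genes that are no members. Gzmk cells had at least 2 UMIs of Gzmk, the granzyme of an age-associated memory state. Ly6c2 cells had fewer than 2 Gzmk UMIs and at least 5 of Ly6c2, a marker of memory and of cells that have responded to interferon. Naive-type cells had no Gzmk UMI, at most 4 Ly6c2 and 2 Ccl5 UMIs, and at least 2 UMIs over a set of naive cell markers, Ccr7 and Lef1 among them. The recipient library held 1068 Gzmk, 1794 Ly6c2 and 1962 naive-type cells, or 20%, 33.6% and 36.7% of kept cells, and the donor library 1132, 4574 and 1150, or 15.2%, 61.4% and 15.4%. Gates are ranges of a count and not cell types: 183 and 208 cells had exactly 1 Gzmk UMI and 133 and 192 exactly 2, while 112 and 171 cells had 4 Ly6c2 UMIs and 120 and 162 had 5. Gzmk cells were shallow, with a median of 4614.5 and 4551.5 UMIs against 8329.5 and 8609 in Ly6c2 cells and 7321 and 7568.5 in naive-type cells, so that thinning left out 18.9% and 20.5% of Gzmk cells.

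Of these 3 gates, Gzmk cells held the highest share of mitotic-positive cells and naive-type cells the lowest, in both libraries. At 3500 UMIs per cell the share was 2.54% [1.60, 3.82] (22 cells) in recipient and 1.89% [1.10, 3.01] (17 cells) in donor Gzmk cells. In Ly6c2 cells it was 1.05% [0.622, 1.65] (18 cells) and 1.23% [0.934, 1.60] (56 cells), and in naive-type cells 0.315% [0.116, 0.685] (6 cells) and 0.622% [0.251, 1.28] (7 cells). In the 364 recipient and 437 donor cells outside the gates it was 0.275% [0.0070, 1.52] and 0.229% [0.0058, 1.27], 1 cell each. In the recipient library the Gzmk and naive-type intervals do not overlap, whereas in the donor library they do. Unthinned shares kept this order at 2.81%, 1.28% and 0.815% in the recipient and 2.39%, 1.60% and 1.04% in the donor library. Each pair of libraries overlaps within each of these 3 gates. The S-phase share followed the same order, with 3.46% [2.35, 4.91] and 3.33% [2.26, 4.72] in Gzmk cells, 1.45% [0.943, 2.14] and 1.28% [0.973, 1.65] in Ly6c2 cells, and 0.840% [0.481, 1.36] and 0.711% [0.307, 1.40] in naive-type cells.

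The Ly6c2 gate was not uniform. Split at 10 UMIs of the chemokine gene Ccl5, donor Ly6c2 cells with little Ccl5 had a mitotic-positive share of 2.11% [1.36, 3.13] (24 cells) and those with Ccl5 0.941% [0.645, 1.33] (32 cells). These intervals do not overlap. In the recipient library the shares were 1.09% [0.474, 2.14] (8 cells) and 1.01% [0.486, 1.85] (10 cells). The thinned share of donor cells with little Ccl5 was therefore next to that of Gzmk cells, while in the recipient library it was not apart from the rest of the gate.

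**Figure D4:**
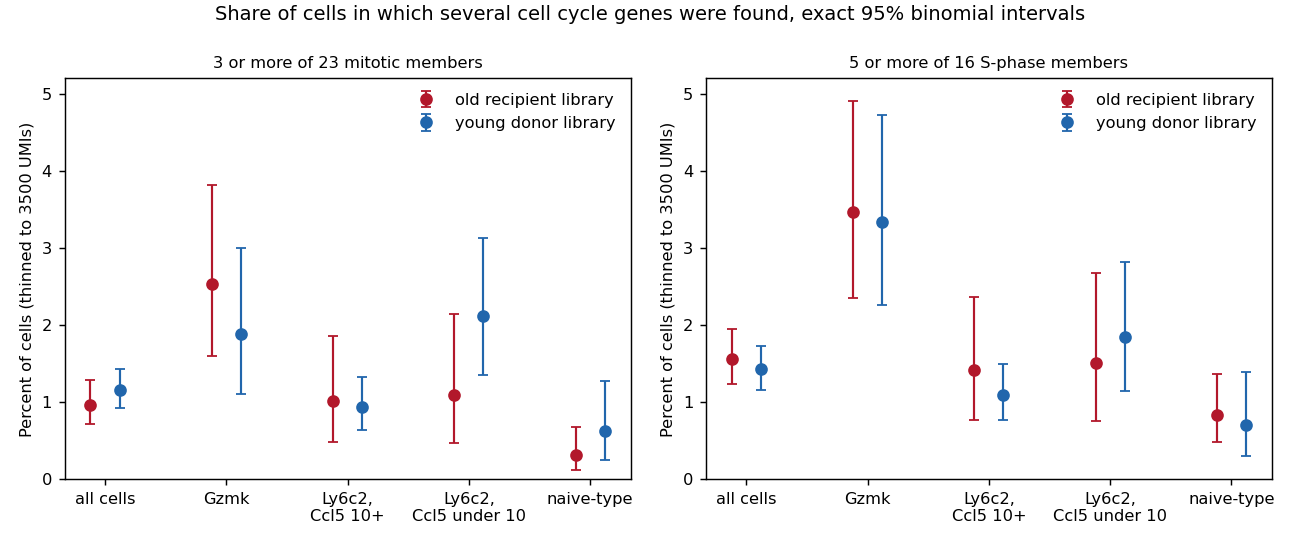
Percent of cells, thinned to 3500 UMIs, with at least 3 mitotic members (left) or at least 5 S-phase members (right), by library and gate, with exact 95% binomial intervals. Gzmk cells are highest in both libraries on the right and in the recipient library on the left, where donor Ly6c2 cells with little Ccl5 (2.11%) lie next to donor Gzmk cells (1.89%).

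Summed levels of the members in the 3 gates gave the same order as the shares. The step of the mitotic sum from naive-type to Ly6c2 cells was small in the donor library, at a log2 ratio of 0.11 [0.01, 0.22]. The 52 other mitotic genes had 0.06 [0.01, 0.10] for this step in the recipient library and -0.09 [-0.13, -0.05] in the donor library. The summed mitotic level was 430 CPM in recipient and 301 CPM in donor Gzmk cells, 95.0 and 119 CPM in Ly6c2 cells, and 58.8 and 110 CPM in naive-type cells. Gzmk over naive-type cells, 33 of 39 members were at least 1.5-fold higher in the recipient library, with none lower, where 26.5% of all genes were that much higher and 8.19% lower. In the donor library the counts were 31 of 36 and 0, against 25.6% and 6.87%. The median of all genes in this ratio was itself 0.31 and 0.30 on the log2 scale, to be set beside medians of 3.44 and 1.56 for the mitotic, 1.02 and 0.81 for the S-phase and 2.08 and 1.35 for the broad members. Gzmk over Ly6c2 cells, 33 of 40 recipient and 34 of 43 donor members were at least 1.5-fold higher, against 24.6% and 21.9% of all genes, and none was that much lower, against 7.88% and 9.68%. The median of all genes was 0.29 and 0.25. Ly6c2 over naive-type cells, the counts were 16 of 32 and 13 of 43 against 6.96% and 8.98%, with none lower against 3.33% and 4.63%.

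Single members followed the order by different steps, and some did not follow it. H2afz had 1346 and 1275 CPM in Gzmk cells, 573 and 606 CPM in Ly6c2 cells and 318 and 327 CPM in naive-type cells, and Hmgb2 618 and 529, 194 and 199, and 121 and 142 CPM. Tubb5 showed no such order, with 545 and 553 CPM in Gzmk cells, 486 and 490 CPM in Ly6c2 cells and 592 and 567 CPM in naive-type cells. Cenpa, the most abundant mitotic gene, had 16.9 and 16.8 CPM in Ly6c2 cells, below 18.8 and 24.9 CPM in naive-type cells. Mcm6 had 112 and 101 CPM in Gzmk, 51.8 and 44.6 CPM in Ly6c2 and 43 and 38.5 CPM in naive-type cells, and Pcna a flatter 65.6 and 65.2, 52.9 and 52.8, and 47.1 and 45.7 CPM. With the mitotic-positive cells removed, the mitotic sum was 85.2 and 76.9 CPM in Gzmk cells against 26.3 and 25.7 CPM in Ly6c2 cells and 31.3 and 33.0 CPM in naive-type cells. Ly6c2 cells then lay below naive-type cells, at -0.25 [-0.45, -0.06] and -0.36 [-0.55, -0.17]. The removal used unthinned counts. The Gzmk cells left were shallower, with a median of 4570 and 4520 UMIs against 8251 and 8583 in Ly6c2 and 7317 and 7539 in naive-type cells. How far depth enters the Gzmk value was not tested.

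Within the gates the mitotic sums of the libraries pointed in opposite directions, but they rested on few cells. In Gzmk cells 50% of the mitotic UMIs lay in 7 recipient and 5 donor cells. In Ly6c2 cells they lay in 8 and 18 cells, and in naive-type cells in 22 and 3. The intervals of the mitotic-positive shares overlapped between the libraries in each of these gates. In Gzmk cells the mitotic sum was higher in the recipient library, with a log2 ratio of 0.52 [0.43, 0.60]. This ratio was 0.25 with gates on thinned UMIs and 0.34 with the Gzmk gate at 4 UMIs. In Ly6c2 cells the mitotic sum was lower, at -0.33 [-0.41, -0.24], or -0.43 without the barcodes found in both libraries. It was also lower in naive-type cells, at -0.90 [-1.04, -0.77]. The naive-type value rested on a few donor cells: without the 5 cells richest in mitotic UMIs on each side it was -0.04. The Ly6c2 value was then -0.62, but the removed cells held unequal shares of the mitotic UMIs in the libraries. The S-phase sum differed less, with 0.25 [0.18, 0.31] in Gzmk cells, 0.07 [0.03, 0.12] in Ly6c2 cells and 0.08 [0.01, 0.14] in naive-type cells. The broad sum was 0.12 [0.09, 0.15], -0.02 [-0.04, 0.00] and 0.01 [-0.02, 0.04].

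In Gzmk cells 11 of 40 members were at least 1.5-fold higher in the recipient library and none lower, against 2.73% and 1.64% of all genes. They were Rrm2, Pclaf, Top2a, Ccnb2, Cenpe, Aurkb, Tpx2, Kif11, Nusap1, Cdc20 and Stmn1. The interval of Cenpe held 0 (0.59 [-0.13, 1.32]). The 30 recipient and 27 donor mitotic-positive Gzmk cells held 81.5% and 75.8% of the mitotic UMIs of this gate. Members share these cells, so a count of members in a gate is not a count of independent results. Top2a had 45.7 CPM in recipient and 27.6 CPM in donor Gzmk cells (0.73 [0.44, 1.02]), Aurkb 14.3 and 5.56 CPM (1.37 [0.77, 2.00]), Kif11 11.4 and 4.72 CPM (1.27 [0.61, 1.96]) and Rrm2 40.1 and 16.7 CPM (1.26 [0.92, 1.62]). Stmn1 had 80.1 and 43.8 CPM (0.87 [0.65, 1.10]). Mki67 was below the fold at 26.6 and 19.9 CPM (0.42 [0.06, 0.78]), and Ccnb1 level at 9.62 and 9.43 CPM (0.03 [-0.53, 0.59]).

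In Ly6c2 cells 6 of 43 members, all mitotic, were at least 1.5-fold lower in the recipient library and none higher, against 2.29% and 2.77% of all genes. Ube2c had 3.77 CPM in recipient and 9.70 CPM in donor Ly6c2 cells (-1.36 [-1.79, -0.96]), Ccnb1 1.12 and 2.54 CPM (-1.18 [-2.01, -0.43]), Cdk1 1.78 and 3.48 CPM (-0.96 [-1.61, -0.36]), Cenpf 2.25 and 4.34 CPM (-0.95 [-1.53, -0.41]), Ccnb2 4.36 and 7.58 CPM (-0.80 [-1.20, -0.41]) and the kinetochore motor Cenpe 1.26 and 2.05 CPM (-0.71 [-1.51, 0.03]). The other mitotic genes of this gate stood nearer to 0, among them Mki67 with 6.28 and 6.02 CPM (0.06 [-0.30, 0.41]). The difference lay in the cells with little Ccl5, whose mitotic sum was 87.4 and 198 CPM (-1.18 [-1.31, -1.05]), while cells with Ccl5 had 101 and 93.1 CPM (0.12 [0.01, 0.23]).

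In naive-type cells 6 of 29 members were at least 1.5-fold lower in the recipient library and none higher, against 1.91% and 2.15% of all genes. They were Mki67, Top2a, Birc5, Ccnb2, Ccna2 and Ube2c. Ube2c had 2.38 and 10.3 CPM (-2.11 [-2.72, -1.53]), Mki67 2.24 and 5.60 CPM (-1.32 [-2.00, -0.65]) and Top2a 6.26 and 12.3 CPM (-0.98 [-1.40, -0.57]). This ratio rested on very few cells: 1 donor cell held 34.5% of the 963 mitotic UMIs of donor naive-type cells, and 3 cells together held 50%. Without the cell richest in mitotic UMIs on each side the log2 ratio was -0.51 [-0.66, -0.35], and without the 5 richest -0.04 [-0.24, 0.16]. In Gzmk cells 50% of the mitotic UMIs lay in 7 recipient and 5 donor cells, and the ratio was 0.62 [0.52, 0.71] without the richest and 0.82 [0.70, 0.94] without the 5 richest. In Ly6c2 cells 50% lay in 8 and 18 cells, and without the 5 richest the ratio was -0.62 [-0.72, -0.51]. The 5 richest cells held 41.4% and 52.6% of the mitotic UMIs in recipient and donor Gzmk cells, and 37.4% and 23.1% in Ly6c2 cells. Removing 5 on each side thus took unequal shares from the libraries, so the larger ratios in these gates are no sign of a firmer difference. In cells that were not mitotic-positive the ratios were 0.15 [-0.05, 0.34] in Gzmk, 0.03 [-0.14, 0.20] in Ly6c2 and -0.08 [-0.29, 0.14] in naive-type cells.

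**Figure D5:**
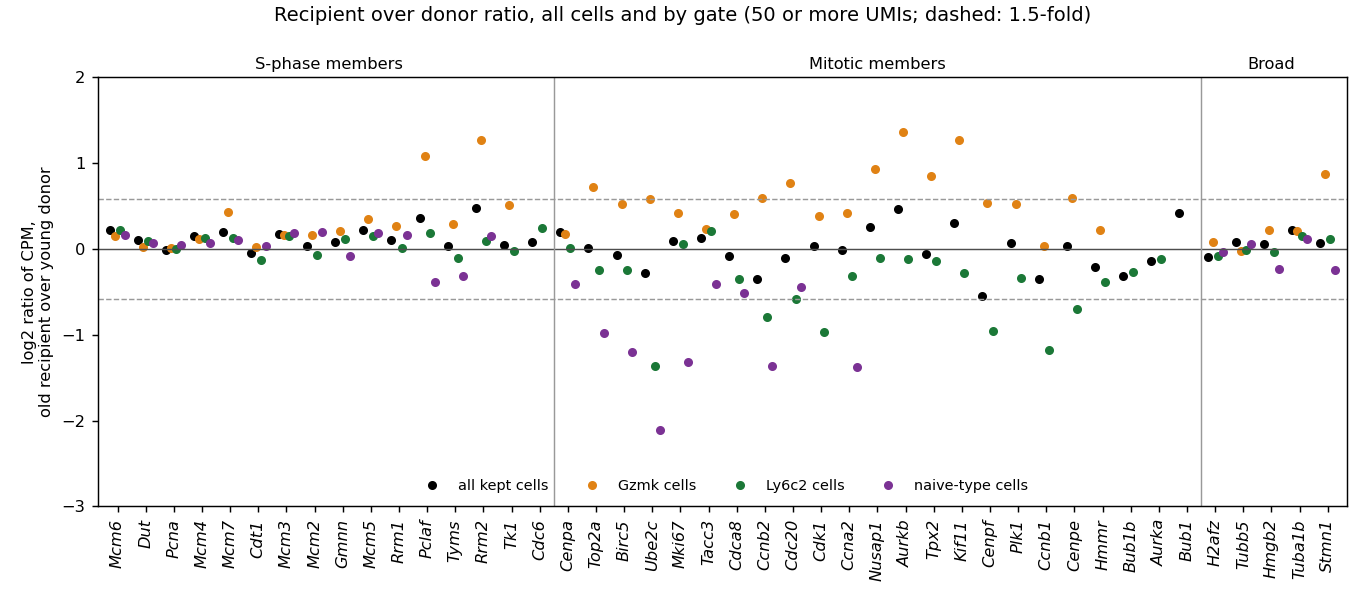
Log2 ratio of CPM, recipient over donor, for the 44 genes in all kept cells and in Gzmk, Ly6c2 and naive-type cells, where at least 50 UMIs were counted over both libraries, with dashed lines at 1.5-fold. The mitotic genes lie above 0 in Gzmk cells and mostly below 0 in Ly6c2 and naive-type cells, while the ratios in all cells lie between the dashed lines.

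The mitotic-positive cells themselves were drawn from the gates in different proportions. Unthinned, 30 of the 71 recipient cells (42.3% [30.6, 54.6]) were Gzmk cells, 23 (32.4% [21.8, 44.5]) Ly6c2 cells and 16 (22.5% [13.5, 34.0]) naive-type cells. Of the 115 donor cells, 27 (23.5% [16.1, 32.3]) were Gzmk, 73 (63.5% [54.0, 72.3]) Ly6c2 and 12 (10.4% [5.51, 17.5]) naive-type. These proportions move with the size of the gates, given above for each library. Among cells with 12 or more mitotic genes the Gzmk gate held 47.4% in the recipient and 17.3% in the donor library. Inside the mitotic-positive Gzmk cells the median number of mitotic genes was 15 in the recipient and 7 in the donor library, at a median depth of 12481 and 10825 UMIs. In the naive-type gate it was 4.5 and 6.5, the lowest of the 3 gates in both libraries.

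Inside mitotic-positive cells, which were chosen without the S-phase genes, all 16 S-phase genes had ratios above 0. Their sum was 3551 CPM in recipient and 2755 CPM in donor cells, a log2 ratio of 0.37 [0.30, 0.43], against a median of 0.07 over the 5039 genes with at least 50 UMIs in these cells. The interval lay above 0 for 11 of the 16 and below 0 for none, where 9.80% and 5.42% of all genes had such intervals. Rrm2 had 405 and 263 CPM (0.62 [0.42, 0.83]) and was the single member at least 1.5-fold higher, against 6.05% of all genes, and the mitotic kinase gene Aurka the single one that much lower, against 3.85%. Mcm4 had 152 and 104 CPM (0.55 [0.21, 0.88]), Mcm3 200.4 and 143 CPM (0.49 [0.20, 0.77]), Gmnn, the inhibitor of Cdt1, 165 and 123 CPM (0.43 [0.12, 0.74]) and Pclaf 605 and 459 CPM (0.40 [0.24, 0.56]). The median cell held 11 of the 16 genes in the recipient and 8 in the donor library.

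The mitotic genes, which chose these cells, summed to 3737 and 3874 CPM (-0.05 [-0.11, 0.01]), given as a description. Ccnb2 with 230 and 288 CPM, Cenpf with 112 and 159 CPM and Ube2c with 344 and 399 CPM had intervals below 0, and Aurkb with 120 and 85.6 CPM and Tacc3 with 133 and 102 CPM above 0. The 37 other replication genes, which had no part in the choice, summed to 3232 and 2644 CPM (0.29 [0.22, 0.36]), and the 52 other mitotic genes to 4421 and 4250 CPM (0.06 [0.00, 0.11]). The S-phase ratio was 0.68 [0.56, 0.81] in the 30 and 27 Gzmk cells, 0.33 [0.23, 0.43] in the 23 and 73 Ly6c2 cells and 0.16 [-0.04, 0.35] in the 16 and 12 naive-type cells. Without the 5 cells richest in S-phase UMIs on each side it was 0.31 [0.23, 0.38]. How far the different gate proportions enter the pooled ratio was not tested beyond these values.

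The other genes of the pathway moved little between the libraries over all cells. Of 13 G1 cyclin and E2F genes with at least 50 UMIs none passed 1.5-fold. The kinase Cdk2 was highest with 6.25 and 4.62 CPM (0.44 [0.18, 0.69]), followed by E2f2 (0.23 [0.01, 0.44]) and Cdk6 (0.15 [0.01, 0.28]), and E2f1 was lowest with 1.70 and 2.12 CPM (-0.32 [-0.77, 0.13]), then Rb1 (-0.13 [-0.46, 0.19]) and Ccnd2 (-0.11 [-0.15, -0.08]). Of the 37 other replication genes none passed 1.5-fold and 12 had intervals above 0 and 1 below, with Ung, the uracil glycosylase, at 15.3 and 11.8 CPM (0.37 [0.21, 0.53]), Uhrf1 at 0.32 [0.07, 0.56], Clspn at 0.28 [-0.06, 0.62], and Pola1, Atad2 and Hells lowest at -0.22 [-0.49, 0.06], -0.12 [-0.24, -0.01] and -0.06 [-0.23, 0.10]. Of 50 other mitotic genes 1 passed 1.5-fold: Ncaph, a condensin subunit, had 3.01 and 1.69 CPM (0.83 [0.43, 1.23]). Next came the kinetochore gene Ndc80 (0.55 [0.27, 0.82]) and Cdca5 (0.54 [0.06, 1.01]), and lowest were Ncapg (-0.28 [-0.77, 0.20]), Aspm (-0.26 [-0.80, 0.25]) and Cks2 (-0.25 [-0.35, -0.15]). In both libraries 37 of the 37 other replication genes and 49 of the 50 other mitotic genes had counting intervals above 0 in mitotic-positive cells over the rest, against 15.5% of all genes.

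T cell state genes in mitotic-positive cells, against all other cells of the same library, described which CD8 T cells these were. The granzyme genes Gzmb and Gzma were higher, with log2 ratios of 2.55 [2.30, 2.79] and 1.96 [1.73, 2.18] in the recipient and 1.87 [1.5, 2.21] and 2.57 [2.23, 2.88] in the donor library, as was the effector receptor gene Klrg1 at 2.31 [1.95, 2.66] and 2.04 [1.54, 2.50]. Gzmk stood at 1.45 [1.31, 1.58] and 1.09 [0.93, 1.25], Tigit at 1.18 [0.84, 1.5] and 0.75 [0.35, 1.12], and Cx3cr1 at 0.89 [0.31, 1.42] and 0.94 [0.28, 1.53]. Several genes of resting and naive cells were lower in both libraries: Igfbp4 at -1.38 [-1.64, -1.12] and -0.93 [-1.21, -0.66], the interleukin receptor gene Il7r at -0.94 [-1.16, -0.72] and -0.70 [-0.85, -0.56], Lef1 at -0.82 [-1.05, -0.59] and -0.45 [-0.63, -0.28], and S1pr1 at -0.72 [-1.01, -0.44] and -0.36 [-0.58, -0.15]. The naive cell genes Ccr7, Tcf7 and Dapl1, given below, did not have intervals below 0 in both. Klf2 at -0.25 [-0.37, -0.14] and -0.12 [-0.21, -0.04] and Ccl5 at -0.21 [-0.24, -0.17] and -0.72 [-0.76, -0.69] were lower in both.

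Other state genes had intervals away from 0 in only 1 of the libraries. In the recipient library Eomes stood at 1.21 [0.97, 1.44], Lag3 at 1.18 [0.79, 1.56], Pdcd1 at 1.17 [0.64, 1.66], Ikzf2 at 1.14 [0.62, 1.62], Cd44 at 0.75 [0.34, 1.13], Tox at 0.61 [0.28, 0.92] and Cxcr3 at 0.28 [0.01, 0.53], and Ccr7 at -0.68 [-0.90, -0.47] and Tcf7 at -0.47 [-0.68, -0.26]. The donor values of these genes were 0.09, 0.39, -0.16, -0.07, -0.07, -0.18 and 0.14, and -0.13 and -0.15, in the same order. In the donor library Dapl1, also a marker of naive cells, stood higher at 0.71 [0.61, 0.82], Izumo1r at 1.02 [0.24, 1.70] and Il2rb at -0.39 [-0.54, -0.25], against 0.04, -0.27 and 0.17 in the recipient library. Ly6c2 was slightly lower in recipient mitotic-positive cells at -0.17 [-0.28, -0.06] and slightly higher in donor ones at 0.10 [0.04, 0.16]. Tbx21 (0.18 and 0.05) and Fcer1g (0.54 and -1.29) had intervals that held 0 in both. The difference between the libraries in these ratios was not tested.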

How the data were processed

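The samples were 2 droplet libraries of 5′ transcript ends, 1 per group. The authors deposited raw UMI counts per gene and cell, aligned and counted with Cell Ranger (software version 3.0.2 per the file headers) against mm10, with Seurat named for later steps, per the submitters' processing notes. The annotation release is not given in the sources used here. Cells with at least 500 genes and at most 10% mitochondrial UMIs were kept, and the top doublet scores (4.95% and 6.87% of the cells that passed, from simulated doublets) were removed. UMIs were summed per library or gate and expressed as CPM of those cells' own total. Log2 ratios carry exact conditional binomial intervals, levels exact Poisson intervals and shares exact Clopper-Pearson intervals, all at 95%. These cover counting error only and are too narrow where few cells hold most UMIs. A gene passed the fold rule at 1.5-fold with at least 50 UMIs over both sides. Shares were compared after thinning each cell to 3500 UMIs. The ratio intervals were run on simulated Poisson sums, the model they assume, with no UMIs gathered in few cells. That run cannot show how the intervals hold where few cells carry most UMIs. The thinning was run on simulated cells and checked for equal totals only. TMM factors came from edgeR 4.0.16 and served an alternative scaling only. All 44 members may be named. Full values go to Mki67, Top2a, the 3 S-phase and 3 mitotic members with the most UMIs, the 3 highest and 3 lowest ratios of each list and the broad members. Of other pathway lists the 3 highest and 3 lowest ratios with at least 100 UMIs are named, and other genes named in a gate or in mitotic-positive cells were chosen after their values were seen. The members, lists and gates were chosen with earlier results of these data known. Some genes of the gates and lists are not reported here. Python 3.11.15, numpy 2.4.6, scipy 1.17.1 and pandas 2.3.3 were used.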

Additional observations from a re-analysis of the deposited data

Results flagged for a closer look

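The recipient over donor ratio had counting intervals on opposite sides of 0 in different gates for the mitotic sum and for several members. With 1 library per group the difference between gates was not tested. For the mitotic sum the log2 ratio was 0.52 in Gzmk cells and -0.33 in Ly6c2 cells, a difference of 0.84, and the difference between Gzmk and naive-type cells (-0.90) was 1.42. Between Gzmk and Ly6c2 cells the same held for Ube2c with a difference of 1.95, Ccnb2 with 1.39, Cdc20 with 1.35 and H2afz with 0.16. Between Gzmk and naive-type cells it held for Ube2c with 2.69, Ccnb2 with 1.96, Mki67 with 1.74, Birc5 with 1.72, Top2a with 1.71 and Hmgb2 with 0.45. The share of mitotic UMIs held by the 5 richest cells stands beside these values: 41.4% and 52.6% in recipient and donor Gzmk cells, 37.4% and 23.1% in Ly6c2 cells, and 36.3% and 65.0% in naive-type cells. The naive-type part of these differences rests on those cells, since its ratio was -0.04 without the 5 richest on each side. The gates used unthinned UMIs. On thinned UMIs the ratio of the mitotic sum was 0.25 in Gzmk, -0.23 in Ly6c2 and -1.13 in naive-type cells.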

How the results depend on the processing

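No paired analysis was possible because each group has 1 library. The limits are the single library per group, the small number of mitotic-positive cells and the shallow Gzmk cells. Of 252 recomputed main results, 196 stayed within the counting interval of the reported value (counts of members within 1.5 times), 53 left it and 3 changed sign. Only ratios whose reported interval excluded 0 could count as a change of sign, and other changes of sign stand among the 196 and 53. With TMM scaling the S-phase ratio was 0.079, the broad ratio -0.018, and 1 member was at least 1.5-fold lower. With totals without large gene families the broad ratio was -0.00082, and as a median over members it was 0.073, with the naive-type mitotic ratio at -1.09. In cells with fewer than 3 mitotic members the mitotic ratio was 0.25 over all cells, 0.15 in Gzmk, 0.031 in Ly6c2 and -0.077 in naive-type cells, the S-phase ratio 0.075, Rrm2 -0.060 and Ccnb2 0.25. Shares depend on depth and cut in both libraries. Thinned to 2000 UMIs the S-phase share was 0.760% and 0.662% and the donor mitotic-positive share 0.905%. Thinned to 5000 UMIs the S-phase share was 2.69% and 2.26%, the recipient mitotic-positive share 1.32% and that of Gzmk cells 5.03% and 4.33%. This setting left out every cell below 5000 UMIs, and the median Gzmk cell had 4614.5 and 4551.5. Its Gzmk shares thus cover only the deeper cells of that gate, where the unthinned share of all Gzmk cells was 2.81% and 2.39%. Without thinning the mitotic-positive share was 1.33% and 1.54%, the S-phase share 6.91% and 7.34% and the recipient naive-type share 0.815%. At 2 or more mitotic members the share was 2.00% and 1.93%, in Gzmk cells 5.54% and 5.44% and in recipient naive-type cells 0.893%, and at 5 or more the donor share was 0.915%. The S-phase share was 11.3% and 10.4% at 3 or more members, 3.73% and 3.40% at 4 or more and 0.927% and 0.858% at 6 or more. The mitotic ratio of Ly6c2 cells was -0.42 with the Gzmk gate at 1 UMI, -0.22 with it at 4 UMIs (Gzmk cells 0.34), -0.22 with the Ly6c2 gate at 10 UMIs (naive-type cells -0.73) and -0.43 without the barcodes found in both libraries, where the ratio over all cells was -0.082 and 1 member was at least 1.5-fold lower. It was -1.28 in naive-type cells without a Ccl5 UMI. With gates on thinned UMIs the ratios were 0.25, -0.23 and -1.13 in Gzmk, Ly6c2 and naive-type cells. Without the richest cell on each side they were 0.62 in Gzmk and -0.51 in naive-type cells. Without the 5 richest, which held unequal shares of the mitotic UMIs in the libraries, they were 0.82, -0.62 and -0.042 in the 3 gates. These 2 settings, the shared barcodes and those that follow were chosen after seeing the data. In mitotic-positive cells the S-phase ratio was 0.48 with 6 or more mitotic members, 0.68 in Gzmk cells alone and 0.16 in naive-type cells alone. The cause of these shifts was not tested.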
